A study of Mus musculus with 31 samples.

Results

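The 31 genes described here were chosen by symbol as cholesterol synthesis and SREBP2-linked genes. All 31 were among the 13677 genes of the liver count table, and 30 were among the 15987 genes of the table for eWAT (white fat of the epididymal pad, a visceral depot), where Abcg8 was not listed. The authors' tables hold genes kept after a filter on low CPM (read counts scaled to a common library size), and all 31 genes in liver and 30 in eWAT passed it. By role they were 7 enzymes of the mevalonate arm (Acat2, Hmgcs1, Mvk, Pmvk, Mvd, Idi1 and Fdps) and 11 enzymes from squalene to cholesterol (Fdft1, Sqle, Lss, Cyp51, Tm7sf2, Msmo1, Nsdhl, Hsd17b7, Ebp, Sc5d and Dhcr7). The others were 6 genes of sensing and control (Srebf2, Scap, Insig1, Insig2, Nr1h2 and Mylip) and 7 genes of transport, storage and branching (Stard4, Abca1, Abcg1, Abcg5, Abcg8, Soat1 and Ggps1).

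Cholesterol is built from acetyl-CoA, first through the mevalonate steps to farnesyl diphosphate and then from squalene through a series of sterols. The transcription factor SREBP2 (gene Srebf2) switches on most of the enzymes when sterols in the membrane of the endoplasmic reticulum run low. Scap escorts SREBP2 to the Golgi for cleavage, Insig1 and Insig2 hold it back when sterols are plentiful, and liver X receptors (Nr1h2 encodes one of them) drive export genes such as Abca1 when sterols are in excess. Liver is a main site of cholesterol synthesis and the only organ that sends it into bile, while adipose tissue stores much of its cholesterol in the lipid droplets of fat cells.

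RNA was sequenced from wild-type male C57BL/6 mice of the F1 generation, killed at 24 weeks of age, in 3 arms named HFLF, HF and LF. Every animal itself ate chow until 6 weeks of age and then a diet labelled LFD for 18 weeks. The diet tag of a library (HFLFD, HFD or LFD) was therefore read as the arm of the paternal line, as the series title implies and as no label spells out. Liver had 6 HFLF, 5 HF and 4 LF libraries with 9225373 to 17268415 counts each, and eWAT had 6 HFLF, 6 HF and 4 LF libraries with 9278083 to 27230205 counts each. No label says whether littermates or fathers were shared within an arm, so p-values measure the spread between these animals only.

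The summed level of 6 hepatocyte markers was 75642 to 104360 CPM in liver and 1342 to 6734 CPM in eWAT. That of 6 adipocyte markers was 28562 to 41851 CPM in eWAT, so both tissues carried the markers of their labels. In liver 3 of the adipocyte markers were measured, at 11.6 to 38.1 CPM. The hepatocyte markers were Alb, Cyp2e1, Tat, Hpx, Ahsg and Serpina1c, and which of them, or which cells, gave the eWAT sum was not examined. In eWAT, libraries HF 2, HF 6, LF 3 and LF 6 held 17.9 to 116 CPM of 5 testis markers, against 4.02 CPM or less in the others. Libraries HF 3, HF 5 and LF 2 of eWAT held 80.5 to 421 CPM of 6 B cell markers, against 27.9 CPM or less in the others. None of the 6 epididymis markers was in the eWAT table. Levels are CPM after TMM scaling within a tissue unless said otherwise, and in bulk tissue fewer cells of a type and less RNA per cell cannot be told apart.

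The promoters below are shown because the results turn on genes that varied together between livers. They are Hmgcs1, the synthase used as the anchor of that comparison, its closest followers Idi1 and Cyp51, and Mylip, which had the lowest correlation with it. All but Hmgcs1 were picked for display after their values were seen. Each is 300 bases from RefSeq (GRCm38.p6), 5′ to 3′ on the gene's strand, from 250 bases before the start of transcription to 50 after it. Capitals mark the sterol regulatory element TCACNCCAC, to which SREBP proteins bind, and the NF-Y box CCAAT, the site of a factor that works beside SREBP proteins at many of these genes, each searched on both strands (ATTGG is the box on the opposite strand). The region of Hmgcs1 is chr13:119690101-119690400 (plus strand), that of Idi1 chr13:8885356-8885655 (plus strand), that of Cyp51 chr5:4104648-4104947 (minus strand) and that of Mylip chr13:45389492-45389791 (plus strand).
Hmgcs1: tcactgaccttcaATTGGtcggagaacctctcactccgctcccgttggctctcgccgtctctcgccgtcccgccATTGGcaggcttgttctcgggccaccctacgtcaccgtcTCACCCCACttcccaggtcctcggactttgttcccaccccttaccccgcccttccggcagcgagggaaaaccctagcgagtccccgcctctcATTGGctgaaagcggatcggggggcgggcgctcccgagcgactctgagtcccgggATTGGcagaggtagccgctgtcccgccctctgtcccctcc
Idi1: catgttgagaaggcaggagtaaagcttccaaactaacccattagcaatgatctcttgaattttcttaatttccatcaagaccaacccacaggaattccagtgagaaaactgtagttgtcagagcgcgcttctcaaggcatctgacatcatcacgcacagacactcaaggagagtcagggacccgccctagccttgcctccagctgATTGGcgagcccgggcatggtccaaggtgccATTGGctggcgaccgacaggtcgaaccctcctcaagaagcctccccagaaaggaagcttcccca
Cyp51: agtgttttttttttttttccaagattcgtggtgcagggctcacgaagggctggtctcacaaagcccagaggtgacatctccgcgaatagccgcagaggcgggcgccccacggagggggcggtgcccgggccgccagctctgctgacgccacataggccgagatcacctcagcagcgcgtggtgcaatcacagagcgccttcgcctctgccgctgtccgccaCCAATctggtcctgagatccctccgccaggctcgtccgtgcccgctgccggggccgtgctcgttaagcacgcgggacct
Mylip: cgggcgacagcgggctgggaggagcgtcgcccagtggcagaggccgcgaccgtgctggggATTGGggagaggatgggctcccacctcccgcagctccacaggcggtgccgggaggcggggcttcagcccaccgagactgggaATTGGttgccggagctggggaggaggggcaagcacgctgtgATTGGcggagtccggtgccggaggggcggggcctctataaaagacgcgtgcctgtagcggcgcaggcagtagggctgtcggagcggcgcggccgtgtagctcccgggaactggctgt

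Of the 31 genes, 26 had an entry in the promoter table (all but Fdps, Fdft1, Sqle, Stard4 and Abcg1), and Hmgcs1 was the 1 that held the sterol regulatory element in these letters, at position -137 relative to the start. Of all genes, 388 of 27025 genes (1.44%) held it. The NF-Y box was in 22 of the 26 promoters (84.6%), among them 14 of the 15 synthesis enzymes with an entry, against 11096 of 27025 genes (41.1%). Hmgcs1 carried 4 boxes and Mvk 5, and Mylip, which did not follow the enzymes, carried 3. The motif matches are descriptions of letters, and no match says only that these letters are not in this window. A gene with several promoters counted once if any of them held the motif.

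Between livers of the same arm, the synthesis enzymes ranged widely and together. Sqle, which oxidises squalene in a rate-limiting step, was at 7.82, 29.6 and 83.1 CPM in the lowest, median and highest HFLF liver, at 115, 37.4, 35.4, 50.5 and 18.4 CPM in the HF livers and at 76.5, 21.7, 54.8 and 7.86 CPM in the LF livers. Each arm held both a high and a low liver, and the 3 arms overlapped almost entirely. Hmgcs1, which condenses acetyl-CoA with acetoacetyl-CoA, was at 52.4, 87.1 and 243 CPM in the lowest, median and highest HFLF liver, at 283, 94.1, 72.2, 141 and 66.2 CPM in HF and at 229.5, 129, 102 and 61.6 CPM in LF. These arms overlapped as well, and the highest liver was HF 1. Idi1, the isomerase that makes dimethylallyl diphosphate, was at 2.80, 5.10 and 13.4 CPM in the lowest, median and highest HFLF liver, at 18.4, 4.56, 6.07, 7.79 and 3.36 CPM in HF and at 15.7, 4.63, 6.37 and 2.03 CPM in LF. Cyp51, the lanosterol demethylase, was at 30.6, 77.0 and 141 CPM in HFLF, at 193, 72.2, 77.2, 124 and 59.5 CPM in HF and at 164, 70.5, 97.0 and 39.9 CPM in LF. For both genes HF 1 and LF 1 were the highest livers of their arms, and LF 6 was the lowest LF liver.

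**Figure D1:**
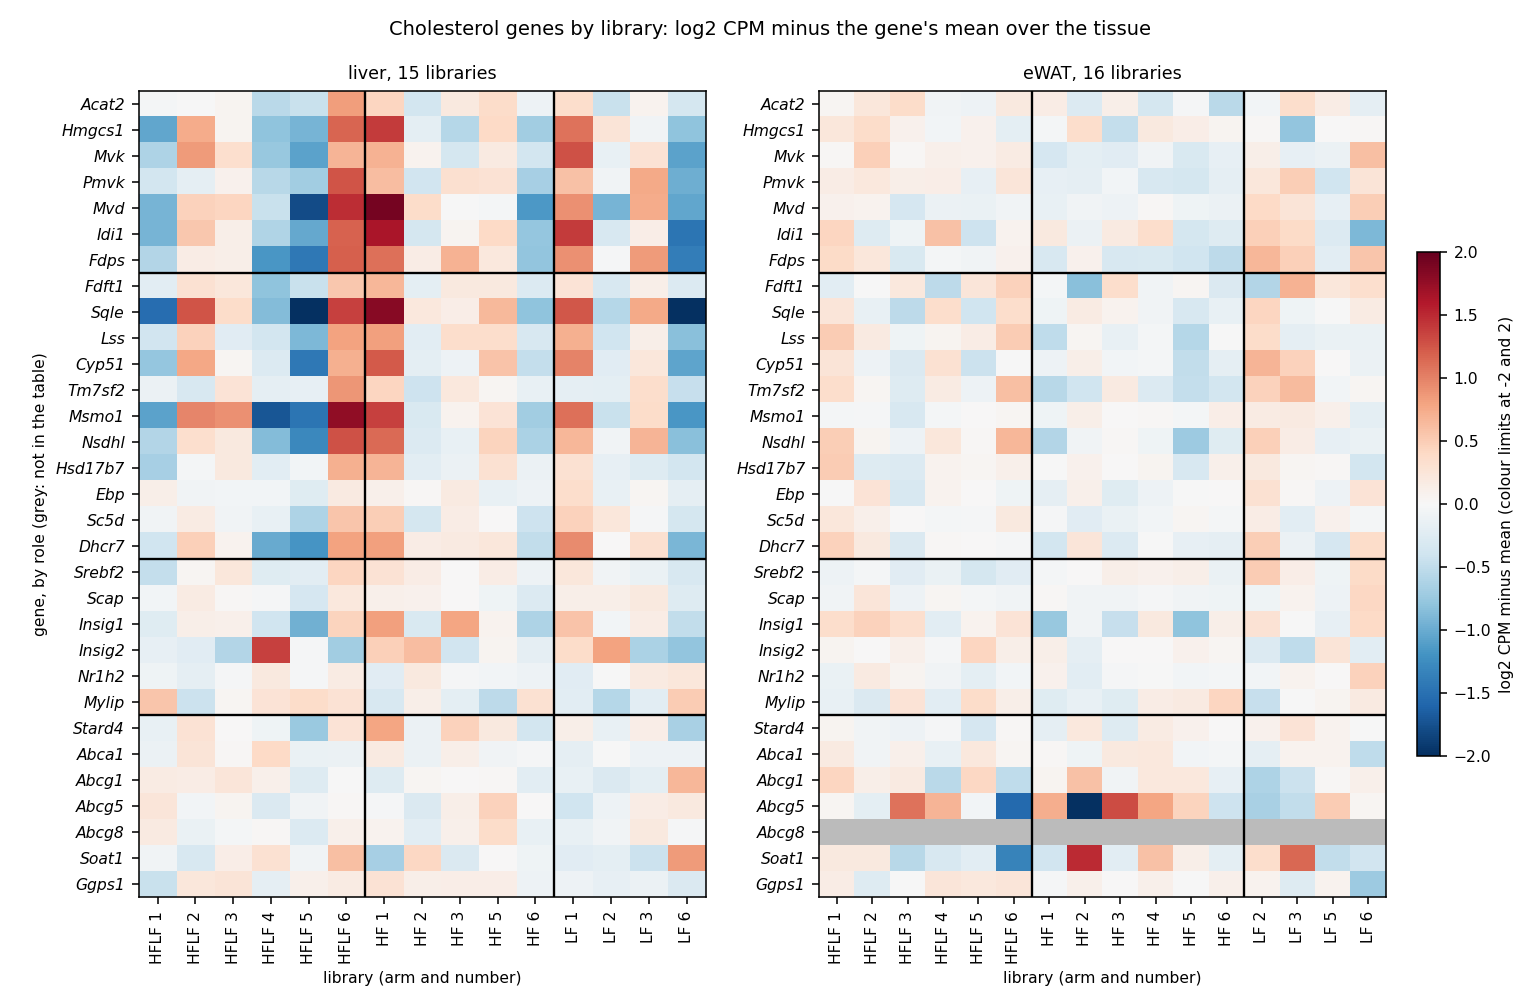
Log2 CPM of each gene (rows, by role) minus its mean over the tissue, in each liver (left) and eWAT (right) library (columns, by arm); red is above and blue below the mean. In liver, the columns of HFLF 6, HF 1 and LF 1 are mostly red and those of HFLF 5 and LF 6 mostly blue over the synthesis enzymes in the upper rows, and eWAT columns are paler and mixed there.

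The same livers were high or low for nearly every enzyme. In livers HFLF 6 and HF 1 all 18 enzymes lay above their arm's mean, and in LF 1 17 of 18 did. In livers HFLF 4, HFLF 5, HF 6 and LF 6 all 18 lay below it. Averaged over the 18 enzymes, log2 CPM was 5.51 ± 0.73 in HFLF (n = 6), 5.75 ± 0.54 in HF (n = 5) and 5.61 ± 0.69 in LF livers (n = 4, mean ± SD). The arm means lay closer together than 1 SD. Within arms the SD of log2 CPM had a median of 0.73 over the 18 enzymes, against 0.23 over the 12535 liver genes with a mean of at least 1 CPM. Sqle had an SD of 1.31, larger than that of 99.6% of those genes, followed by Msmo1 (1.17), the methylsterol oxidase, and Mvd (1.11), the mevalonate diphosphate decarboxylase. Between the lowest and the highest liver, the level differed 14.7-fold for Sqle, 13.7-fold for Mvd and 11.2-fold for Msmo1. At the other end of the list Ebp, the sterol isomerase, had an SD of 0.17 and a 1.49-fold range, and 31.8% of genes had a smaller SD.

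The sensing genes ranged less than the enzymes. Srebf2 itself was at 48.9, 64.9 and 91.4 CPM in the lowest, median and highest HFLF liver, at 83.6, 75.8, 68.7, 76.1 and 63.6 CPM in HF and at 79.6, 65.4, 62.3 and 54.7 CPM in LF. Its range was 1.87-fold, and HFLF 6, HF 1 and LF 1 were again the highest livers of their arms. Insig1, an SREBP target as well as its retainer, was at 91.8, 171 and 242 CPM in the lowest, median and highest HFLF liver, at 316, 145, 306, 186 and 116 CPM in HF and at 263, 172, 197 and 127 CPM in LF. Its SD was 0.54, and HF 1 and HF 3 were the highest livers. Insig2, the form that in mouse liver is made from an insulin-repressed transcript, had an SD of 0.66 but another order of livers: HFLF 4, low for every enzyme, had the highest level at 302 CPM, and LF 6 the lowest at 67.8 CPM.

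Correlation put numbers on this pattern. With arm means subtracted, the pairs of the 18 enzymes had a median Pearson r of 0.843 over the 15 livers, with values from 0.315 to 0.969, and 79.7% of pairs were above 0.7, against 1.10% of all gene pairs in liver. All 21 pairs of the mevalonate arm were above 0.7, and 36 of the 55 pairs from squalene to cholesterol. Of the enzymes, Ebp (median r with the others 0.599) and Tm7sf2, a sterol reductase (0.63), were the most loosely tied, and Nsdhl, the sterol decarboxylase (0.918), and Sqle (0.917) the most tightly. All these pairs share the same livers and library totals, so the r values describe these 15 animals.

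Each gene was then correlated with Hmgcs1 over the 15 livers, a family of 12534 tests over all genes with a mean of at least 1 CPM, with a two-sided permutation test of 100000 resamples within arms (the smallest p it can give is 1e-05). Unadjusted p was under 0.05 and r positive for 20 of 30 genes, against 4.77% of all genes, and negative for 1 of 30, against 4.65% of all genes. After adjustment over all genes 0 of them passed (0.0%), with a smallest adjusted p of 0.146 by Pearson's r and 0.125 by Spearman's rho. The closest followers were Idi1 (r = 0.943, permutation p = 4e-05, adjusted p = 0.146; rho = 0.946) and Cyp51 (r = 0.923, permutation p = 6e-05, adjusted p = 0.146; rho = 0.932). Sqle came next (r = 0.909, permutation p = 8e-05, adjusted p = 0.146; rho = 0.936). Without HF 1 and HFLF 6, the livers farthest from the median of Hmgcs1, r was 0.904 for Idi1, 0.904 for Cyp51 and 0.887 for Sqle, and it stayed positive for all 20 genes. Of the 20 genes nearest to Hmgcs1 among the 12534, 11 were from the list.

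Among the enzymes, 15 of the 17 other than Hmgcs1 were positive at an unadjusted permutation p under 0.05. Tm7sf2 (r = 0.514, permutation p = 0.0772) and Ebp (r = 0.438, permutation p = 0.121) were not, and r of Tm7sf2 was 0.0655 without HF 1 and HFLF 6. Srebf2 (r = 0.883), Scap (0.713) and Insig1 (0.728) followed Hmgcs1, as did Stard4 (0.748), a carrier of cholesterol between membranes, and Ggps1 (0.688), which makes geranylgeranyl diphosphate at the branch towards protein prenylation. The lowest value was that of Mylip (r = -0.624, permutation p = 0.0215, adjusted p = 0.455; rho = -0.718). It is a liver X receptor target and a ubiquitin ligase that degrades receptors of lipoprotein uptake. Next were Nr1h2 (r = -0.420, permutation p = 0.143, adjusted p = 0.646; rho = -0.339) and Abcg1 (r = -0.291, permutation p = 0.306, adjusted p = 0.775; rho = -0.193). Without HF 1 and HFLF 6, r of Mylip was -0.807. With LF 6 left out instead, 0 of the 30 genes were negative at an unadjusted permutation p under 0.05. Mylip was at 10.3, 16.9 and 20.6 CPM in the lowest, median and highest HFLF liver, at 11.1, 15.1, 12.1, 9.67 and 17.3 CPM in HF and at 12.1, 9.37, 12.1 and 19.98 CPM in LF. LF 6, below its arm's mean for all 18 enzymes, was the highest LF liver for Mylip. It also had the highest summed level of 6 macrophage markers of all livers (222 CPM), and the part of these was not tested.

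Export and storage genes went their own way. Abca1 (r = 0.0927), the exporter to lipid-poor apolipoprotein A-I, Abcg5 (-0.181) and Abcg8 (0.0958), the pair that pumps sterols into bile, Soat1 (-0.274), which esterifies cholesterol, and Insig2 (0.0368) had an unadjusted permutation p of 0.342 or more. Nr1h2 was at 44.9, 49.9 and 58.4 CPM in the lowest, median and highest HFLF liver, at 43.3, 58.1, 50.1, 48.9 and 47.3 CPM in HF and at 43.4, 50.8, 57.5 and 59.7 CPM in LF. Abcg1 was at 7.63, 10.03 and 10.8 CPM in HFLF, at 7.64, 9.48, 9.20, 9.33 and 7.97 CPM in HF and at 8.23, 7.47, 7.99 and 14.5 CPM in LF. HF 1, the highest liver for Hmgcs1, was the lowest HF liver for both. Scap spanned 123 to 181 CPM in HFLF, 129 to 168 CPM in HF and 132 to 180.1 CPM in LF livers, a 1.47-fold range in all. Abcg5 spanned 106.7 to 194 CPM and Abcg8 131 to 203 CPM over the 15 livers, HF 5 being the highest for both, and Soat1 spanned 2.57 to 7.61 CPM.

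The genes outside the list nearest to Hmgcs1 in liver had r of 0.837 to 0.881 over the 15 livers. They included Rdh11 (0.881), a retinol dehydrogenase, Mmab (0.858), the cobalamin adenosyltransferase whose gene adjoins Mvk, and Tmem97 (0.849), a sterol-responsive membrane protein, beside Scaper (0.876), Dcaf17 (0.876), Ifih1 (0.854), Lmntd2 (0.847) and Paip2b (0.842). Rdh11 and Tmem97 were in the list of other sterol and SREBP genes, and the other 6 named were not. None of 6 technical or marker measures in liver (library total and the summed hepatocyte, adipocyte, B cell, macrophage and mesothelium markers) was correlated with Hmgcs1 at an adjusted permutation p under 0.87. The largest, that of macrophage markers, had r = -0.324 and rho = -0.336 (permutation p = 0.261 and 0.262). Without HF 1 and HFLF 6, r was -0.464 for macrophage, 0.502 for adipocyte and -0.425 for hepatocyte markers.

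**Figure D2:**
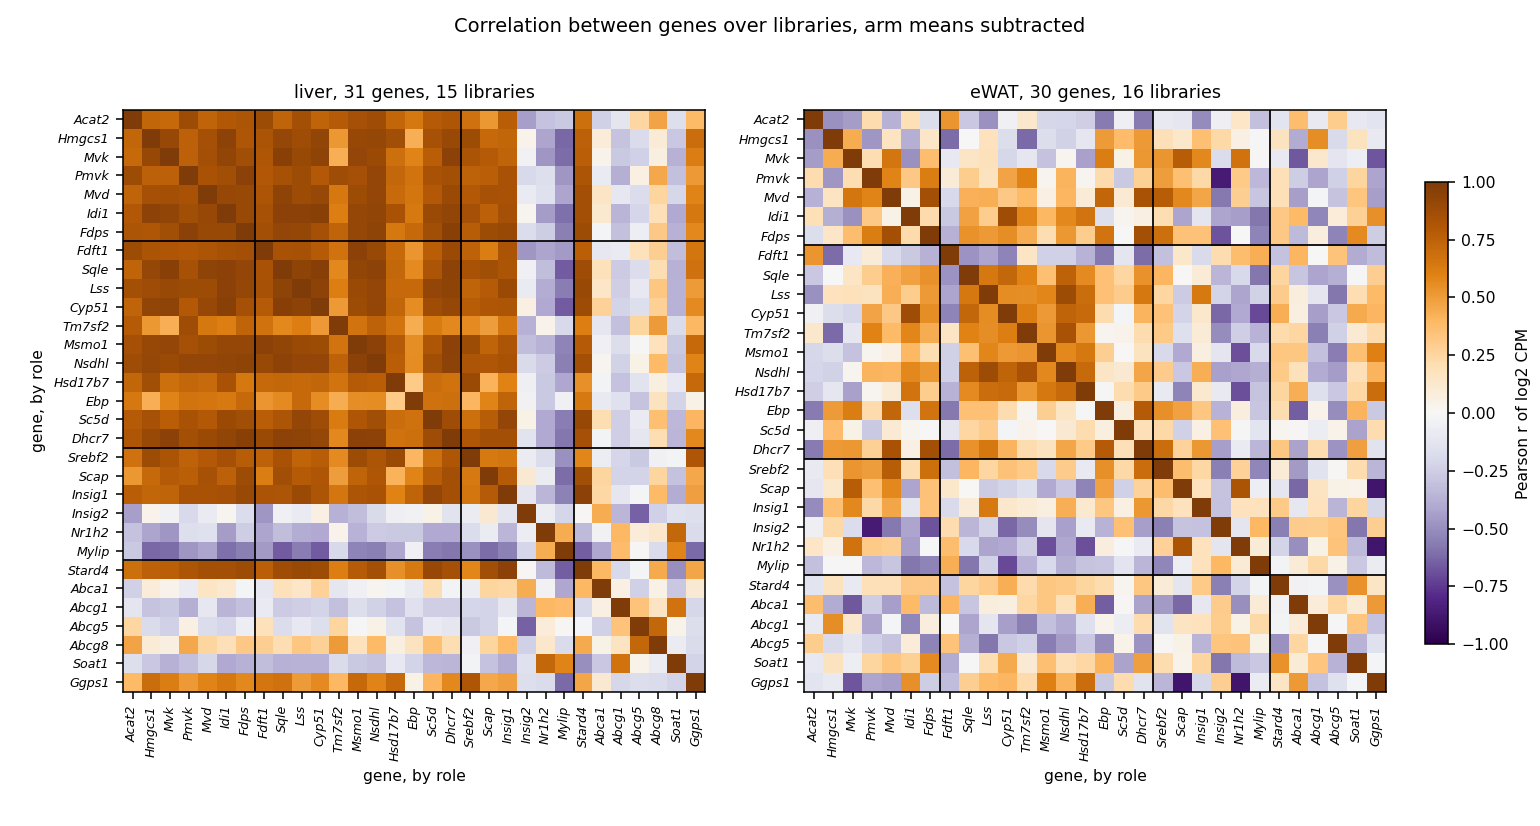
Pearson r between genes over the 15 liver libraries (left) and the 16 eWAT libraries (right), on log2 CPM with arm means subtracted; genes run by role along both axes. In liver the block of the 18 enzymes is orange to brown throughout (median r 0.843), with Srebf2, Scap, Insig1 and Stard4 continuing it, while in eWAT the same block is mixed (median r 0.212).

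In eWAT the enzymes varied less than in liver and moved together only loosely. The within-arm SD of log2 CPM had a median of 0.26 over the 18 enzymes, against 0.22 over the 14484 eWAT genes with a mean of at least 1 CPM. Sqle was at 8.77, 13.2 and 16.2 CPM in the lowest, median and highest HFLF library, at 10.04, 11.9 and 14.1 CPM in HF and at 17.02, 11.9, 12.6 and 14.1 CPM in LF. Hmgcs1 was at 167, 202 and 245 CPM in HFLF, at 136, 203 and 244 CPM in HF and at 193, 109.6, 192 and 194 CPM in LF. The arms overlapped for both genes, and the lowest Hmgcs1 level was that of LF 3, a library high in testis markers and the one with the most hepatocyte markers (6734 CPM).

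The enzyme pairs had a median r of 0.212 over the 16 eWAT libraries, against -0.001 over all gene pairs. Above 0.7 were 8.50% of enzyme pairs, against 1.52% of all gene pairs in eWAT. The tightest enzyme by its median was Cyp51 (0.473). The steadiest enzymes of eWAT were Sc5d, at 101 to 138 CPM, and Msmo1, at 14.5 to 20.7 CPM, with SDs of 0.12 and 0.13, and the least steady was Idi1, at 1.28 to 3.83 CPM, with 0.43. Msmo1, next to the top of the list by its spread in liver, thus had 15.2% of eWAT genes below it in SD. With Hmgcs1, 1 of 29 genes (Abcg5, under 1 CPM, was left out of the adjustment) was positive at an unadjusted permutation p under 0.05, against 7.43% of 14483 genes, and 2 of 29 were negative, against 5.77%. After adjustment over all genes 8 of them passed (0.0552%) and 0 of the 29, whose smallest adjusted p was 0.262 by r and 0.184 by rho. By rho 4 were positive and 1 negative at an unadjusted p, given without the share over all genes by rho. After adjustment 44 of all genes passed by rho, against 8 by r. The highest were Abcg1 (r = 0.551, permutation p = 0.0246, adjusted p = 0.294; rho = 0.559), Dhcr7 (r = 0.506, permutation p = 0.0870; rho = 0.606) and Ebp (r = 0.503, permutation p = 0.0620; rho = 0.594). The lowest were Tm7sf2 (r = -0.616, permutation p = 0.0175, adjusted p = 0.262; rho = -0.350), Fdft1 (r = -0.611, permutation p = 0.0388; rho = -0.656) and Acat2, which makes acetoacetyl-CoA (r = -0.486, permutation p = 0.0921; rho = -0.403). Without LF 3 and HF 3, the farthest from the median, r was -0.212 for Tm7sf2, -0.345 for Fdft1 and -0.0907 for Acat2. For Abcg1, Dhcr7 and Ebp it was 0.674, 0.51 and 0.441. Soat1 had the highest r of the 29 genes without those libraries, at 0.852, against 0.169 with them, so the order of the followers rests on LF 3 and HF 3.

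Abcg1 in eWAT was at 91.4, 148 and 179 CPM in the lowest, median and highest HFLF library, at 119, 147 and 201 CPM in HF and at 87.0, 98.8, 135.8 and 143 CPM in LF. Ebp was at 28.5, 35.8 and 42.9 CPM in HFLF, at 30.1, 34.3 and 38.4 CPM in HF and at 44.3, 36.5, 33.3 and 43.4 CPM in LF. Dhcr7, a reductase of the last step to cholesterol, was at 13.3, 16.6 and 22.6 CPM in HFLF, at 12.6, 14.6 and 19.4 CPM in HF and at 22.97, 15.05, 12.95 and 21.2 CPM in LF. All 3 arms overlapped for these genes, and LF 2 was the highest library for Ebp and Dhcr7. Fdft1, the squalene synthase, was at 43.5, 67.5 and 85.9 CPM in HFLF, at 35.1, 60.3 and 80.1 CPM in HF and at 41.9, 102 (LF 3), 73.5 and 79.4 CPM in LF. Acat2 was at 47.1, 54.6 and 65.2 CPM in HFLF, at 34.7, 45.4 and 55.9 CPM in HF and at 48.5, 64.1 (LF 3), 55.95 and 44.4 CPM in LF. Both overlapped between arms, and LF 3, lowest for Hmgcs1, was the highest LF library for both; Fdft1 shares exon bases with Ctsb on the opposite strand. Of 8 technical and marker measures, the summed hepatocyte markers had the largest r with Hmgcs1 in eWAT (r = -0.681, permutation p = 0.0136, adjusted p = 0.109; rho = -0.718, adjusted p = 0.0158). Without LF 3 and HF 3 r was -0.444 for hepatocyte markers, and that of macrophage markers was 0.782, against 0.037 with all 16 libraries. The part of either in these values was not tested, nor which cells gave the hepatocyte marker sum. The genes outside the list nearest to Hmgcs1 in eWAT were 4930502E18Rik (0.901), Cdkl4, Dusp9, Nek6, Baiap3, Nedd9, Enho, Irak2, Fhl1 and Peg10 (0.867), and none of them was in the list of other sterol and SREBP genes. In the 14 libraries whose arm and number occur in both tissues, the level of an enzyme in liver and in eWAT had a median r of 0.00387 over the 18 enzymes, against 0.00788 over 12729 genes. No label says that these libraries came from the same animal.

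Between arms, no cholesterol gene passed the test in liver. The comparisons ask whether the diet history of the father's line left a mark on these genes in sons that ate the same diet. With edgeR's quasi-likelihood test and Benjamini-Hochberg adjustment, 0 of 31 genes were called for HFLF against LF, for HFLF against HF or for HF against LF, and 0 genes of the whole table (0.0% of 13677 in each). DESeq2 and limma voom called 0 of the 31 as well. Over all 13677 genes DESeq2 called 11, 0 and 1 in the same order, and limma voom 0 in each. At an unadjusted p under 0.05 there were 0 of 31 genes in either direction in all 3 comparisons and by all 3 tools. Of all genes, edgeR had 2.82% higher and 2.65% lower for HFLF against LF, 0.951% and 0.914% for HFLF against HF and 1.92% and 1.68% for HF against LF.

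The median log2 fold change of the 18 enzymes in liver was -0.068 for HFLF against LF, -0.15 for HFLF against HF and 0.13 for HF against LF, against 0.00033, 0.0024 and -0.0021 over all genes. Each of these medians changed sign when 1 liver was left out. For HFLF against LF it was 0.27 without LF 1, 0.049 without LF 3 and 0.044 without HFLF 5, and for HFLF against HF it was 0.15 without HF 1. For HF against LF it was -0.19 without HF 1, -0.12 without LF 6 and -0.002 without LF 2. Single standard errors were large for the variable enzymes: Sqle had log2 fold changes of -0.017 ± 0.78 for HFLF against LF, -0.36 ± 0.73 for HFLF against HF and 0.34 ± 0.81 for HF against LF. Hmgcs1 had -0.15 ± 0.56, -0.16 ± 0.53 and 0.01 ± 0.58 in the same order. These arms were therefore not told apart at this spread, which does not show them alike. Leaving out HF 1 turned Sqle to 0.17 for HFLF against HF and to -0.19 for HF against LF, and Hmgcs1 to 0.33 and -0.48. Srebf2 had 0.055 ± 0.15, -0.11 ± 0.14 and 0.17 ± 0.16, and Insig1 -0.18 ± 0.32, -0.35 ± 0.30 and 0.17 ± 0.33, in the same order.

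Over all 31 genes the fitted values in liver ran from -0.35 to 0.27 for HFLF against LF, from -0.40 to 0.31 for HFLF against HF and from -0.23 to 0.37 for HF against LF. The smallest unadjusted p in liver was that of Ggps1 for HF against LF, where the HF livers had 10.99, 9.77, 9.92, 9.81 and 8.33 CPM and the LF livers 8.36, 8.0004, 8.24 and 7.29 CPM. The arms overlapped by HF 6 and LF 1, and the log2 fold change was 0.29 ± 0.14 (unadjusted p = 0.0541, adjusted p = 1.0 by edgeR). HFLF livers had 6.56, 9.84 and 10.7 CPM as their lowest, median and highest, with 0.21 ± 0.14 against LF (unadjusted p = 0.142, adjusted p = 0.872). The labels state no strand setting for the counting, and Arid4b lies on the opposite strand over 257 exon bases of Ggps1, so their reads may not be told apart. Stard4 was at 162, 86.3, 129.6, 106 and 72.7 CPM in HF and at 102, 84.5, 103 and 59.7 CPM in LF, with 0.35 ± 0.24 for HF against LF (unadjusted p = 0.171). In HFLF livers its lowest, median and highest levels were 56.1, 91.1 and 114 CPM, with -0.28 ± 0.22 against HF (unadjusted p = 0.219). Abca1 was at 101, 107 and 145 CPM in HFLF, at 124, 102, 119, 106 and 109 CPM in HF and at 97.2, 109, 103 and 102 CPM in LF. Its log2 fold changes were 0.17 ± 0.11 for HFLF against LF (unadjusted p = 0.132) and 0.12 ± 0.11 for HF against LF (unadjusted p = 0.289), and HFLF 4 was its highest liver. Mylip had 0.27 ± 0.22 for HFLF against LF and 0.31 ± 0.20 for HFLF against HF (unadjusted p = 0.232 and 0.144). The arms overlapped for each of these genes, and none passed the test.

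**Figure D3:**
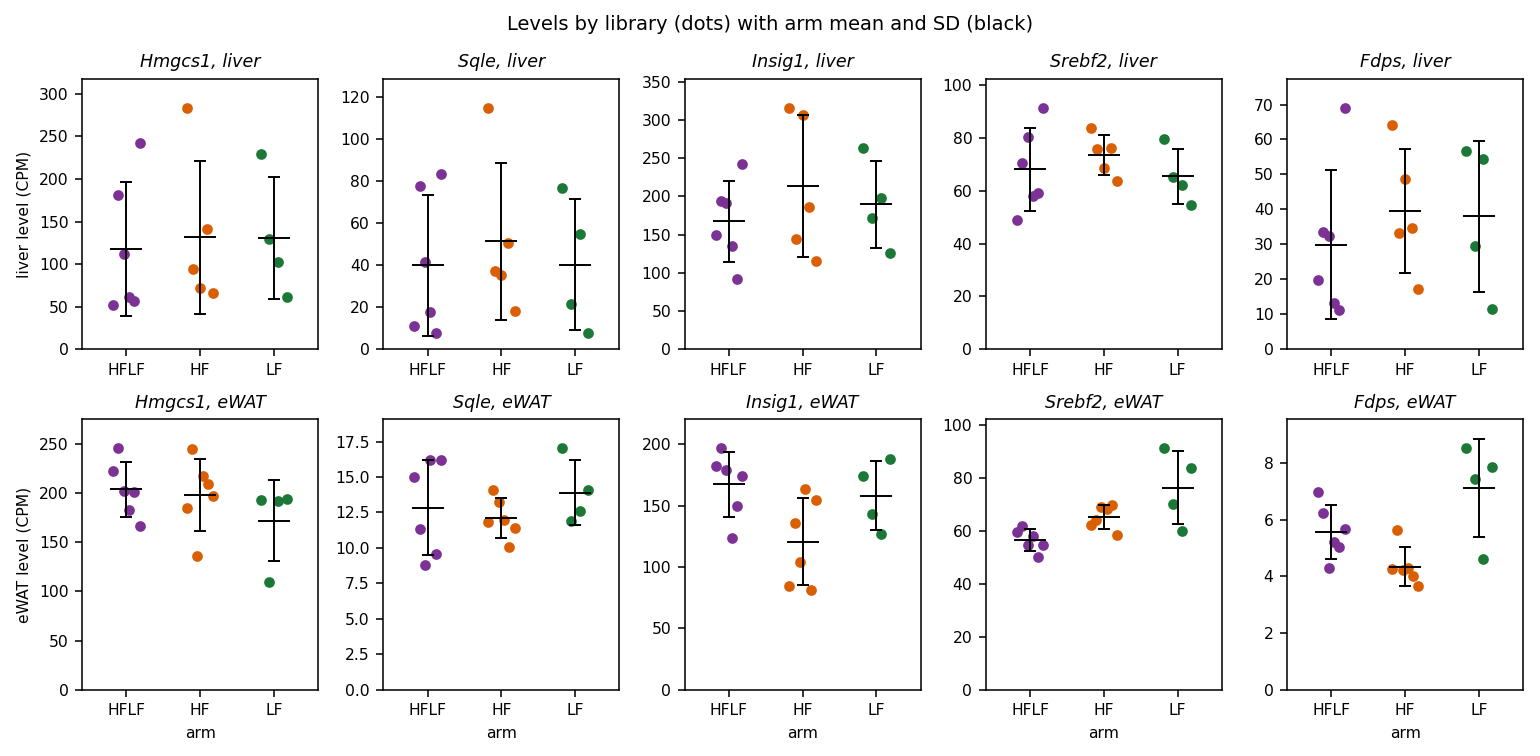
Level in CPM (vertical axis, from 0) of Hmgcs1, Sqle, Insig1, Srebf2 and Fdps in each library (dots) by arm (HFLF, HF, LF) in liver (top) and eWAT (bottom); black marks are the arm mean and SD. In liver each arm spans from low to high, while in eWAT Srebf2 is lowest in HFLF (50.4 to 62.0 CPM) and Fdps lowest in HF (3.66 to 5.64 CPM).

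In eWAT the synthesis enzymes lay lower in HF than in LF without passing the test. With edgeR's quasi-likelihood test, 0 of 30 genes and 0 of 15987 genes (0.0%) were called for HF against LF. At an unadjusted p under 0.05, 7 of 30 were lower, against 4.22% of all genes, and 0 were higher, against 2.82%. The 7 were Fdps, Tm7sf2, Pmvk, Mvd, Mvk, Cyp51 and Srebf2. DESeq2 and limma voom gave the same count and called 0 of the 30 after adjustment. Over all 15987 genes DESeq2 called 12 and limma voom 0. Fitted values were below 0 for 15 of the 18 enzymes, with a median log2 fold change of -0.24 over the 18 and -0.0042 over all genes. Without the 4 libraries high in testis markers the count at an unadjusted p was 3 and the median -0.24. Without the 3 high in B cell markers these were 4 and -0.14. Over all 15987 genes, 442 and 1318 were at an unadjusted p under 0.05 in these 2 fits, against 1126 with every library.

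Fdps, which makes farnesyl diphosphate, was at 3.66, 4.23 and 5.64 CPM in the lowest, median and highest HF library, against 8.51, 7.42, 4.59 and 7.86 CPM in LF. LF 5 lay within the HF range and the other LF libraries above it, and the log2 fold change was -0.71 ± 0.18 (unadjusted p = 0.00112, adjusted p = 0.689 by edgeR). Fdps shares 1124 exon bases with Gm43738 on the same strand, so its count is uncertain by the way such reads were assigned. Tm7sf2 was at 5.96, 6.80 and 10.1 CPM in HF, against 12.2, 13.8, 8.49 and 9.15 CPM in LF, with -0.59 ± 0.19 (unadjusted p = 0.00584, adjusted p = 0.689). HF 3 alone reached into the LF range, and Tm7sf2 shares exon bases with Vps51. Pmvk, the phosphomevalonate kinase, was at 33.7, 37.6 and 41.2 CPM in HF, against 50.3, 60.3, 32.5 and 51.2 CPM in LF, with -0.39 ± 0.13 (unadjusted p = 0.00709, adjusted p = 0.689). For Pmvk LF 5 lay below every HF library and the other LF libraries above all of them. LF 5 was the LF library in neither marker-high set, and without it 11 genes were lower and 2 higher at an unadjusted p, with a median of -0.31 over the 18 enzymes. The count over all 15987 genes rose as well, from 1126 with LF 5 to 1916 without it.

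In HFLF eWAT, Srebf2 and Mvd had the smallest p against LF, without passing the test. For HFLF against LF, 0 of 30 genes and 0 of 15987 (0.0%) were called by edgeR, and at an unadjusted p under 0.05 there was 1 higher (Insig2), against 3.78% of all genes, and 2 lower (Srebf2 and Mvd), against 7.06%. The median log2 fold change of the 18 enzymes was -0.057, against 0.0094 over all genes. Srebf2 was at 50.4, 56.5 and 62.0 CPM in the lowest, median and highest HFLF library, against 91.3, 70.3, 60.2 and 83.8 CPM in LF. HFLF 2 lay above LF 5, and the other LF libraries lay above all HFLF ones. The log2 fold change was -0.43 ± 0.10 (unadjusted p = 0.000481, adjusted p = 0.266 by edgeR). DESeq2 called Srebf2 (log2 fold change -0.44, adjusted p = 0.0301) among 69 of 15987 genes, and limma voom did not. With LF 5 left out, edgeR called it among 13 of 15987 genes (-0.53, adjusted p = 0.0424). Mvd was at 7.99, 9.50 and 10.7 CPM in HFLF, against 13.3, 12.1, 8.995 and 14.3 CPM in LF, with -0.34 ± 0.12 (unadjusted p = 0.0128, adjusted p = 0.322), LF 5 again being the LF library within the other range. Insig2 was at 101, 109.5 and 140.1 CPM in HFLF, against 85.5, 72.7, 124 and 89.4 CPM in LF, with 0.28 ± 0.12 (unadjusted p = 0.0383, adjusted p = 0.423), and here LF 5 was the 1 LF library inside the HFLF range.

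**Figure D4:**
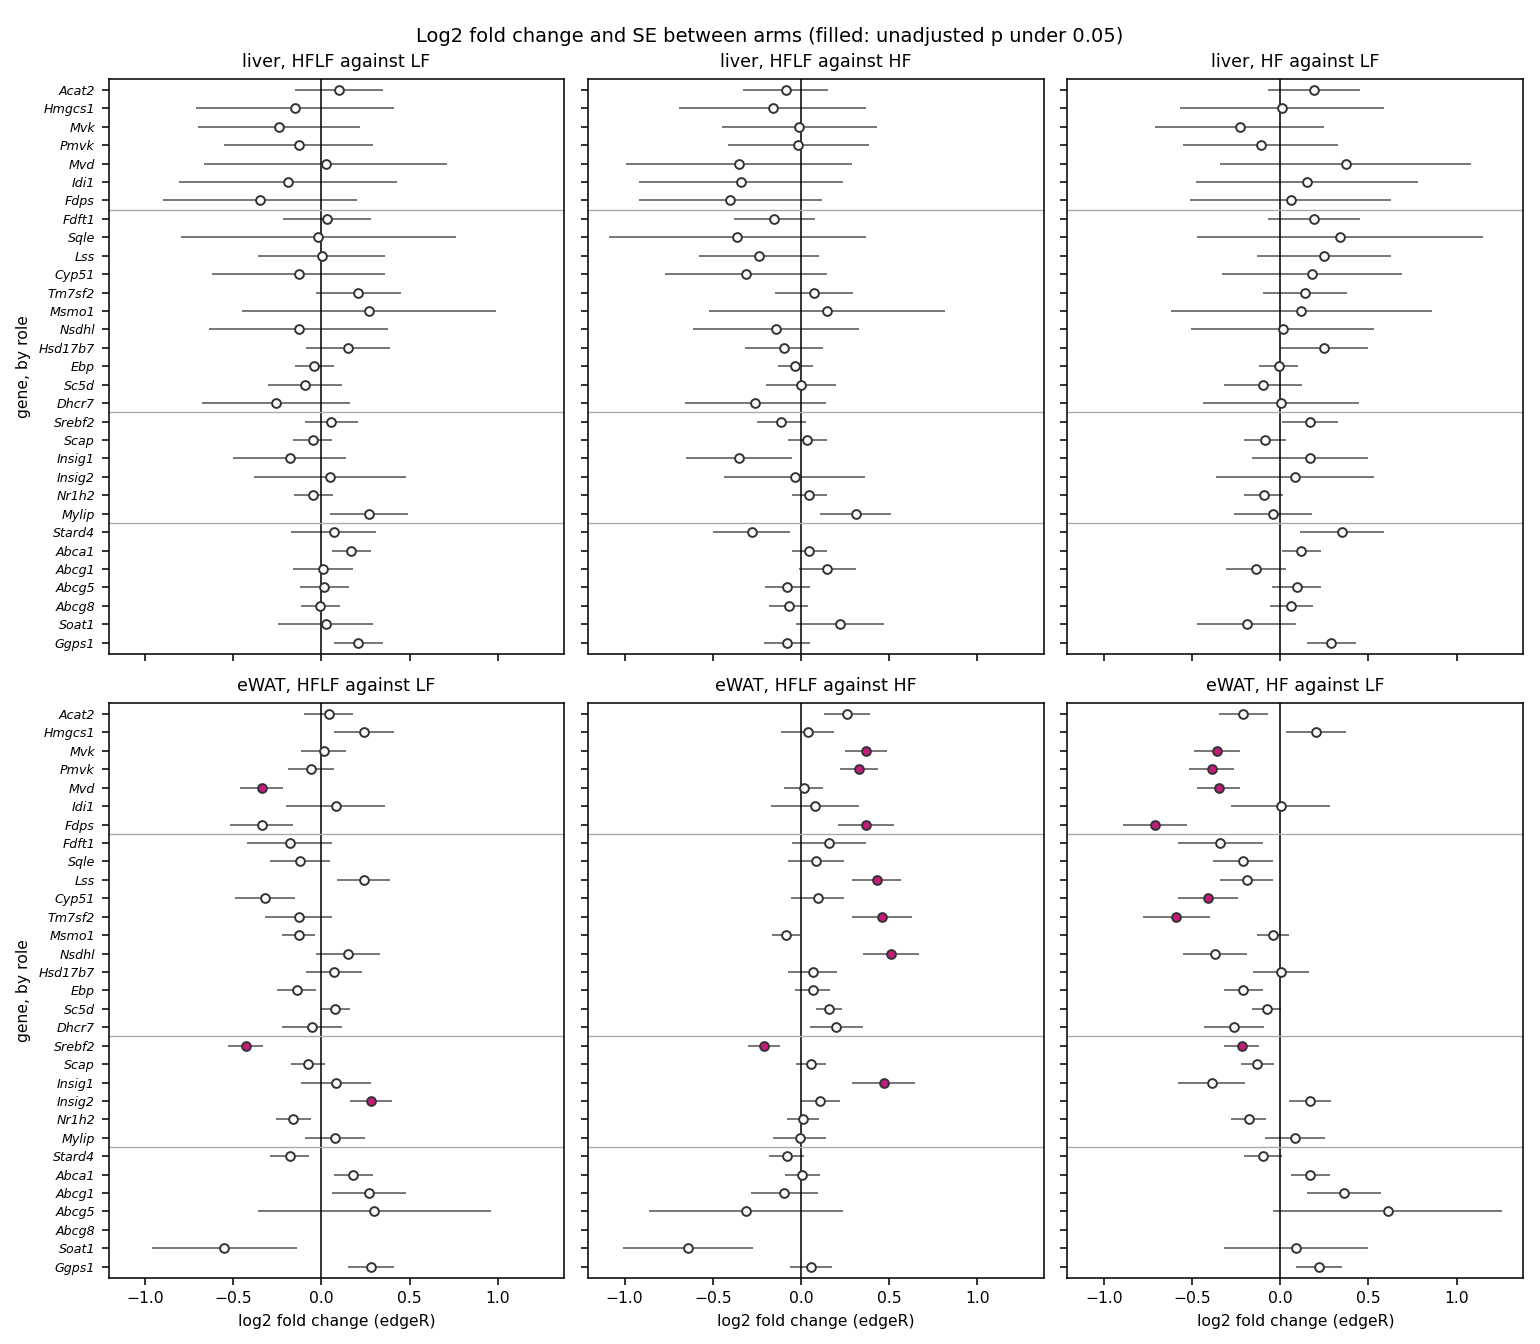
Log2 fold change (horizontal axis) with its SE for each gene (vertical axis, by role) in the 3 arm comparisons of liver (top) and eWAT (bottom), from edgeR; filled points have an unadjusted p under 0.05. No liver point is filled, and in eWAT 7 are filled to the left for HF against LF and 7 to the right for HFLF against HF; Abcg8 was not in the eWAT table.

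For HFLF against HF in eWAT, 0 of 30 genes and 0 of 15987 (0.0%) were called by edgeR, and DESeq2 and limma voom called 0 of the 30. Over all genes DESeq2 called 52 and limma voom 0. At an unadjusted p under 0.05 there were 7 higher, against 4.86% of all genes, and 1 lower, against 4.43%. The 7 were Mvk, Pmvk, Fdps, Lss, Tm7sf2, Nsdhl and Insig1, and the 1 was Srebf2. This comparison shares its HF libraries with HF against LF. Of the 18 enzymes, 17 had a fitted value above 0, with a median of 0.16, against 0.0012 over all genes. Mvk, the mevalonate kinase, was at 32.1, 33.8 and 44.0 CPM in the lowest, median and highest HFLF library, against 24.96, 27.3 and 30.2 CPM in HF. These arms did not overlap, and the log2 fold change was 0.37 ± 0.12 (unadjusted p = 0.00547, adjusted p = 0.428). Nsdhl was at 30.7, 36.8 and 52.9 CPM in HFLF, against 19.9, 29.8 and 33.7 CPM in HF, with 0.51 ± 0.16 (unadjusted p = 0.00579, adjusted p = 0.428). Lss, the lanosterol synthase, was at 25.5, 30.5 and 38.4 CPM in HFLF, against 18.2, 25.2 and 28.0 CPM in HF, with 0.43 ± 0.14 (unadjusted p = 0.00593, adjusted p = 0.428). Both Nsdhl and Lss overlapped between the arms. Insig1 was at 124, 176 and 197 CPM in HFLF, against 81.3, 120.1 and 163 CPM in HF and 174, 143, 127 and 188 CPM in LF, with 0.47 ± 0.18 for HFLF against HF (unadjusted p = 0.0152, adjusted p = 0.459). HF 1, HF 3 and HF 5 were the 3 lowest libraries for Insig1. Srebf2 was at 58.5, 66.2 and 70.1 CPM in HF, a range that held LF 5 and lay below the other LF libraries, with -0.21 ± 0.090 for HFLF against HF and -0.22 ± 0.10 for HF against LF (unadjusted p = 0.0354 and 0.0387).

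Other genes of sterol and SREBP metabolism were read from a list of 38, of which 37 were in the liver and 36 in the eWAT table; 0 were called between arms in either tissue by edgeR. At an unadjusted p under 0.05 the list had 1 higher and 1 lower for HFLF against LF, 0 and 1 for HFLF against HF and 3 and 0 for HF against LF in liver, of 37 genes. Of all liver genes, 2.82% and 2.65%, 0.951% and 0.914%, and 1.92% and 1.68% were higher and lower in the same comparisons. In eWAT the list had 1 and 1, 6 and 0, and 0 and 4 of 36 genes, against 3.78% and 7.06%, 4.86% and 4.43%, and 2.82% and 4.22% of all genes. In liver Aacs, which activates acetoacetate for synthesis, averaged 142 ± 23.5 CPM in HF and 72.4 ± 23.4 CPM in LF (SD), with a log2 fold change of 0.98 ± 0.32 (unadjusted p = 0.00829, adjusted p = 1.0). HFLF livers averaged 90.4 ± 35.8 CPM, with -0.66 ± 0.28 against HF (unadjusted p = 0.0345). Acat1, the mitochondrial thiolase, had 0.36 ± 0.13 for HFLF against LF and 0.37 ± 0.13 for HF against LF in liver, and Nceh1, a cholesteryl ester hydrolase, 0.36 ± 0.15 for HF against LF (unadjusted p = 0.0113, 0.012 and 0.0342). Gramd1a and Stard3, sterol carriers, were the next smallest in liver, at unadjusted p of 0.0571 or more. In eWAT Pnpla3, a lipid droplet protein and SREBP1 target, averaged 202 ± 45.3 CPM in HFLF, against 137 ± 19.0 CPM in HF, with 0.56 ± 0.15 (unadjusted p = 0.002, adjusted p = 0.415). Against LF (202 ± 46.8 CPM), HF had -0.56 ± 0.17 (unadjusted p = 0.00426, adjusted p = 0.689), beside Fabp5 at -0.51 ± 0.18 and Acaca, the acetyl-CoA carboxylase, at -0.80 ± 0.31. Stard3 had -0.37 ± 0.13 for HFLF against LF in eWAT (unadjusted p = 0.0132), Vldlr 0.30 ± 0.16, and Acat1 0.20 ± 0.085 against LF and 0.22 ± 0.075 against HF. Fasn, the fatty acid synthase, averaged 3957 ± 1805 CPM in HFLF, against 1938 ± 833 CPM in HF, with 1.03 ± 0.35 (unadjusted p = 0.00897, adjusted p = 0.433). Soat2, the hepatic cholesterol esterifying enzyme, had -0.30 ± 0.10 for HFLF against LF in liver (unadjusted p = 0.00951, adjusted p = 0.83).

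Liver carried more of most of these genes than eWAT. The 12735 genes that both tables share were fitted with edgeR in all 31 libraries at once, with CPM scaled over both tissues, and 27 of 30 genes were called. Of these 21 were higher in liver, against 42.6% of all genes, and 6 were lower, against 42.9%. All 18 enzymes had a positive fitted difference, with a median log2 difference of 2.31, against 0.0049 over all genes, and all 11 enzymes from squalene to cholesterol were called higher. In the mevalonate arm 4 of 7 were called, and Hmgcs1 (0.15 ± 0.22, adjusted p = 0.537), Mvk (0.15 ± 0.19, adjusted p = 0.455) and Pmvk (0.32 ± 0.17, adjusted p = 0.0822) were not. For 14 of the 30 genes the libraries of the tissues did not overlap, against 46.6% of 12731 genes, so that this count lies at the background.

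Tm7sf2 was at 97.6, 119 and 247 CPM in the lowest, median and highest liver, against 4.86, 7.06 and 11.2 CPM in eWAT, a log2 difference of 4.19 ± 0.14 (adjusted p = 3.42e-22 by edgeR). Stard4 was at 75.1, 128 and 221 CPM in liver, against 7.36, 9.35 and 11.3 CPM in eWAT, with 3.79 ± 0.12 (adjusted p = 4.28e-23). Abcg5 was at 145, 189 and 262 CPM in liver, against 0, 0.411 and 1.18 CPM in eWAT, with 8.64 ± 0.19 (adjusted p = 1.86e-26), and eWAT library HF 2 had a count of 0, which allows up to 3 counts or 0.283 CPM. Tissue libraries did not overlap for these genes. Abcg1, the exporter to high-density lipoprotein, was at 10.05, 12.6 and 19.7 CPM in liver, against 71.8, 113 and 165 CPM in eWAT, with -3.11 ± 0.12 (adjusted p = 1.04e-20). Mylip was at 12.6, 19.5 and 28.1 CPM in liver, against 71.9, 99.2 and 130.7 CPM in eWAT, with -2.35 ± 0.12 (adjusted p = 6.02e-18). For both, every eWAT library lay above every liver. Soat1 was at 3.50, 5.30 and 10.3 CPM in liver, against 8.36, 18.7 and 61.4 CPM in eWAT, with -2.03 ± 0.22 (adjusted p = 7.93e-10), and the tissues overlapped at their edges. Its highest eWAT libraries, HF 2 and LF 3, were high in testis markers and had the most of 6 macrophage markers (1834 and 2070 CPM, against 601 to 1490 CPM in the others). The lowest Soat1 library, HFLF 6, had the least of the macrophage markers, and the part of either list in the level was not tested. Nr1h2, Abca1 and Ggps1 were the other genes lower in liver, by -0.33 ± 0.056, -0.20 ± 0.064 and -1.14 ± 0.079.

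**Figure D5:**
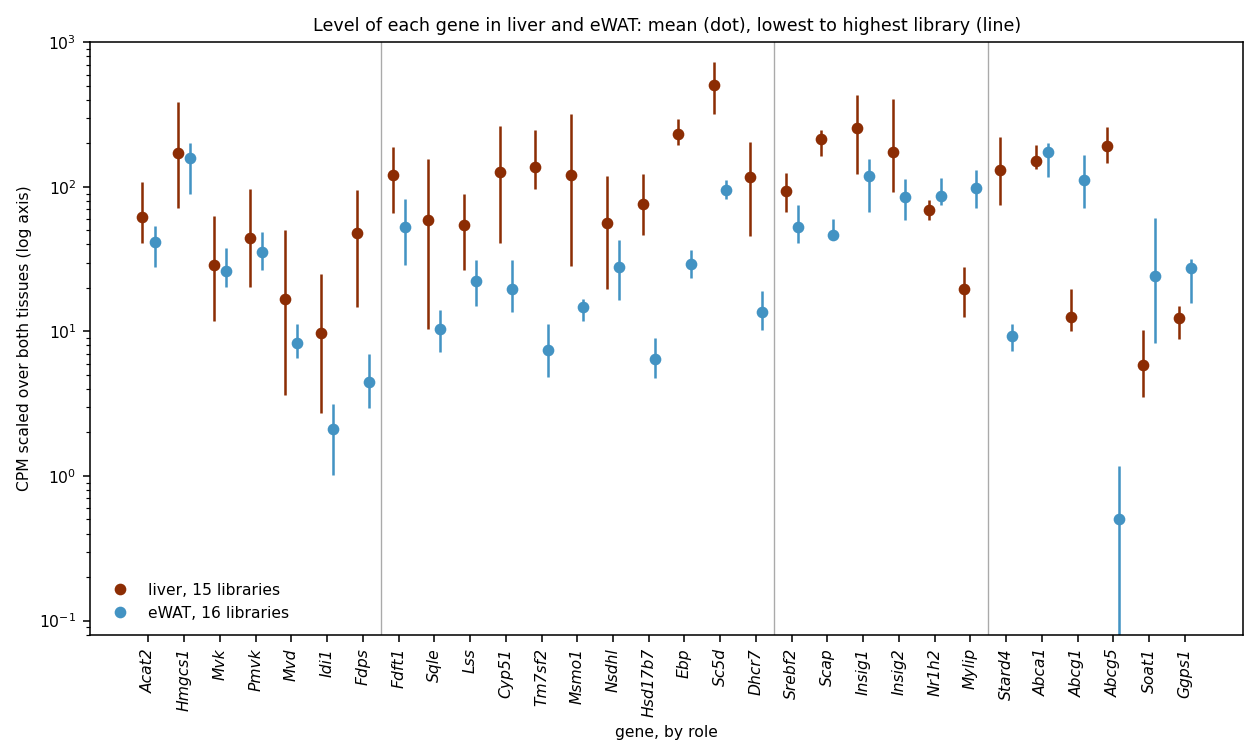
Level of each gene in liver (left of each pair) and eWAT (right) on a log axis, as CPM scaled over both tissues; dots are means over 15 livers or 16 eWAT libraries and lines run from the lowest to the highest library (Abcg5 in eWAT reaches 0, below the axis). All 11 enzymes from Fdft1 to Dhcr7 have higher means in liver, while Hmgcs1, Mvk and Pmvk lie side by side.

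Per kilobase of exon, the most abundant enzymes in liver were Sc5d, the lathosterol desaturase, at 104 CPM per kb and Ebp at 101 CPM per kb, and the least abundant was Idi1 at 2.77 CPM per kb. In eWAT Hmgcs1 was the most abundant at 34.3 CPM per kb, against 37.2 CPM per kb in liver, and Idi1 again the least at 0.602 CPM per kb. Insig1 was at 83.0 CPM per kb in liver and 38.8 in eWAT, and Srebf2 at 13.1 and 7.35. Of the 36 other sterol and SREBP genes 18 were called higher and 11 lower in liver, against 42.6% and 42.9% of all genes. They were led by Soat2 (7.12 ± 0.13), Fads2 (6.28 ± 0.14), a fatty acid desaturase, and Gramd1c (5.69 ± 0.095) on the log2 scale. The interaction of tissue and arm was called for 0 of 30 genes and 0 of 12735 genes (0.0%) in each comparison by edgeR, and limma voom called 0 of the 30 as well. At an unadjusted p under 0.05 it was 1 of 30 for HFLF against LF (Srebf2, 0.49 ± 0.19, unadjusted p = 0.0153), against 5.84% of genes. It was 1 for HFLF against HF (Insig1, -0.81 ± 0.35, unadjusted p = 0.0256), against 4.94%, and 1 for HF against LF (Tm7sf2, 0.72 ± 0.32, unadjusted p = 0.0328), against 4.88%. These counts moved with single libraries. That for HFLF against HF was 7 without liver HFLF 6, 2 without liver HFLF 2, HF 2 or HF 6, and 0 without liver HF 1 or HF 3. For HF against LF the count was 3 without liver HF 6, 2 without liver HFLF 1 or HFLF 6 or without eWAT LF 5 or LF 6, and 0 without liver HF 1, HF 3 or LF 6 or without eWAT HF 1 or LF 2. For HFLF against LF it was 0 without eWAT LF 2. Over all 12735 genes, HF against LF had 621 at an unadjusted p under 0.05 with every library. It had 570 without liver HF 6, 868 without eWAT LF 5 and 848 without eWAT LF 2. The counts for HFLF against HF and HFLF against LF are given without those over all genes in the same fits. Without that background, a rise such as that to 7 is not a result about these genes. Among the other sterol genes Aacs had the smallest interaction p, at 1.44 ± 0.39 for HF against LF (unadjusted p = 0.00106, adjusted p = 0.956).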

How the data were processed

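Whole-number read counts per gene, as deposited by the authors for liver and eWAT, were used; per the submitters' processing notes, STAR and GRCm38.p6 were used. No counter, annotation or strand setting is stated in the labels. Genes of low CPM had been removed by the authors, at an unstated minimum. The authors' deposited RPKM tables were not used, since the gene length they imply differed between libraries for 1 gene.

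CPM values were computed here with TMM scaling in edgeR 4.0.16 (R 4.3.3; log2 values with a prior count of 2). The 3 arms of a tissue were fitted together with edgeR's robust quasi-likelihood test and Benjamini-Hochberg adjustment over all genes of the table (threshold 0.05); tissues were compared in 1 fit of all 31 libraries with its own scaling. Standard errors of log2 fold changes were derived as the absolute log2 fold change over the square root of the test's F statistic. The fitting code was tested on simulated data. Correlations used log2 CPM with arm means subtracted, permuted within arms (numpy 2.4.6, scipy 1.17.1). Their adjustment had been planned over the listed genes and was made over all genes with a mean of at least 1 CPM instead. Total counts of 9225373 to 17268415 in liver and 9278083 to 27230205 in eWAT make 3 counts 0.110 to 0.325 CPM, which covers counting error only. The lowest correlation of log2(CPM + 1) between libraries of 1 arm was 0.972 in liver and 0.963 in eWAT.

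Alternatives were DESeq2 1.42.0, limma 3.58.1 (voom), RLE size factors, at least 1 CPM in at least 4 libraries, only the arms compared, a replicate block, each library left out, and eWAT without the libraries high in testis or in B cell genes. Genes were named by their role and by the smallest p of a comparison: 3 of the list and 3 other sterol genes for each arm comparison, the 3 largest tissue differences and the 3 extreme correlations in each direction, and Hmgcs1, Sqle, Srebf2 and Insig1 throughout. The genes, lists, markers and alternatives were chosen with earlier results of these data known. Exon lengths and overlaps are from the annotation of GRCm38.p6 and promoters from RefSeq.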

Additional observations from a re-analysis of the deposited data

Results flagged for a closer look

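Of 183 groups of 4 to 6 libraries (1 gene in 1 arm of 1 tissue), 11 held a library that stood apart from the rest of its arm by Dixon's criterion, and chance alone gives about 9. In liver, Insig2 was highest in HFLF 4 at 301.5 CPM. LF 6, the LF liver lowest in the enzymes, was the highest of its arm for Abcg1 (14.5 CPM) and Soat1 (7.61 CPM). It also had the most macrophage markers of all livers (222 CPM, against 82.7 to 168 CPM in the others). In eWAT, Hmgcs1 was lowest in LF 3 (109.6 CPM), the library with the most hepatocyte markers, and Lss was highest in LF 2 (34.8 CPM), the library with the most B cell markers. Fdps was highest in HF 2 (5.64 CPM) and Hsd17b7 lowest in HF 5 (6.32 CPM) within HF. Within HFLF, Mvk was highest in HFLF 2 (44.0 CPM), Msmo1 lowest in HFLF 3 (14.5 CPM), and HFLF 5 was lowest for Pmvk (38.3 CPM) and highest for Insig2 (140.1 CPM). The part of the markers in these values was not tested.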

How the results depend on the processing

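The median log2 fold change of the enzymes changed sign in liver when 1 library was left out, running from -0.34 to 0.27 for HFLF against LF (0.21 with the replicate block), -0.45 to 0.15 for HFLF against HF and -0.19 to 0.35 for HF against LF. In eWAT it ran from -0.14 to -0.0013, 0.11 to 0.20 and -0.31 to -0.17 in the same order. The liver pair correlation ran from 0.799 to 0.862, and 21 to 22 genes were called higher and 6 lower in liver than in eWAT. The eWAT pair correlation ran from 0.165 to 0.318, and from 0.177 to 0.407 under the other alternatives. In liver, Hmgcs1 for HF against LF turned to -0.055 by limma voom, and 1 gene was higher at an unadjusted p with only the arms compared. Libraries with the same replicate number had correlations of -0.338 to 0.384 between arms, which does not settle whether the numbers pair them. With the numbers as a replicate block, liver HFLF against LF gave Insig1 0.031, Hmgcs1 0.21 and Sqle 0.56. Liver HFLF against HF then gave Hmgcs1 0.14 and 1 gene lower. Of 13677 genes, 512 were at an unadjusted p under 0.05 in that comparison, against 255 without the block. In eWAT, without the libraries high in testis genes, HF against LF had 3 genes lower and Hmgcs1 at -0.048, and HFLF against LF 0 higher and 1 lower; without those high in B cell genes, HF against LF had 4 lower, HFLF against LF 2 higher and 1 lower, and HFLF against HF 0 lower and Hmgcs1 at -0.059. HFLF against LF in eWAT had 1 call by DESeq2 (Srebf2, -0.44), which called 69 of 15987 genes, and 0 higher with only the arms compared. The eWAT counts of genes correlated with Hmgcs1 were 4 positive and 1 negative by Spearman's rho and 6 and 1 with Sqle in place of Hmgcs1. They were 2 and 0 without the testis-high libraries, and 0 negative without the B cell-high ones. The shares over all genes under these settings are not given, so these moves are not results about the listed genes.

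With 1 library left out, liver HF against LF ran from -0.48 to 0.43 for Hmgcs1, -0.013 to 0.36 for Insig1 and -0.19 to 0.85 for Sqle, with 0 to 1 genes higher. Liver HFLF against LF ran from -0.49 to 0.28 for Hmgcs1, -0.33 to 0.016 for Insig1, -0.37 to 0.50 for Sqle and -0.047 to 0.16 for Srebf2, with 0 to 2 higher. Liver HFLF against HF ran from -0.50 to 0.33 for Hmgcs1 and -0.71 to 0.17 for Sqle, with 0 to 1 higher. In eWAT, HF against LF had 0 to 2 higher and 6 to 11 lower; HFLF against LF had 0 to 1 called, 0 to 2 higher, 2 to 5 lower and Insig1 from -0.0089 to 0.18; HFLF against HF had 0 to 1 lower and Hmgcs1 from -0.048 to 0.10. Over all genes, 827 to 1916 of 15987 were at an unadjusted p under 0.05 for HF against LF in eWAT. Negative correlations with Hmgcs1 numbered 0 to 2 in liver, and 0 to 2 in eWAT beside 0 to 4 positive. The cause of these moves was not tested. In liver the SEs of 0.53 to 0.81 for Hmgcs1 and Sqle limit the arm comparisons. At the lowest depth 3 counts are 0.325 CPM in liver and 0.323 CPM in eWAT, which limits Abcg5 in eWAT.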
